A study of Arabidopsis thaliana with 24 samples.

Results

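The CBF cold regulon was followed here through 9 loci of Arabidopsis: the transcription factor genes CBF1 (AT4G25490), CBF2 (AT4G25470) and CBF3 (AT4G25480), and the cold-regulated genes COR15A (AT2G42540), COR15B (AT2G42530), KIN1 (AT5G15960), KIN2 (AT5G15970), COR47 (AT1G20440) and ERD10 (AT1G20450). The members were chosen by locus, for their place in the pathway, with earlier results of these data known. All 9 had a row in at least 1 of the 2 tables of expression values. The root table held 7 of them among 20336 genes, where COR15A and COR15B had no row, and the shoot table held 8 among 19495 genes, where KIN1 had no row. Both tables held 6.

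Wild-type Col-0 seedlings were germinated on MS agar for 5 days and moved to plates with 2 mM TiO2 nanopowder (Ti) or without it (Ctrl). Roots and shoots were collected separately after 3 or 10 additional days, which gives 8 groups of 3 libraries, each library made from a pool of 160 seedlings. The seeds of all groups were stratified in the cold before sowing, and no group received a cold treatment as seedlings. Because pooled organs were sequenced, fewer cells with a transcript and less transcript per cell cannot be told apart. The hour of harvest is not given in the sources used here.

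CBF proteins, also called DREB1 factors, are AP2-domain activators that bind the C-repeat, a short promoter element with the core CCGAC. In Arabidopsis their genes are induced within minutes to hours of a cold shift and are gated by the circadian clock, and their targets, the COR, KIN and dehydrin genes, then raise freezing tolerance. COR15A and COR15B encode chloroplast stroma proteins that stabilise membranes during freezing, KIN1 and KIN2 encode small hydrophilic proteins, and COR47 and ERD10 encode acidic dehydrins, which protect proteins and membranes when water is withdrawn. Several of the targets also answer to drought and abscisic acid through a separate element with the core ACGTG.

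The members lie in 4 clusters of neighbouring copies. In the RefSeq annotation of build TAIR10.1, CBF1 is at chr4:13021780-13022996, CBF3 at chr4:13018010-13019400 and CBF2 at chr4:13015250-13016235, all on the minus strand and each with 1 exon. COR15A (chr2:17710441-17712330) and COR15B (chr2:17708593-17710433) are neighbours on the minus strand, 7 bases apart. KIN1 (chr5:5209717-5210826) and KIN2 (chr5:5211719-5212743) lie 892 bases apart on the plus strand, and COR47 (chr1:7084409-7086873) and ERD10 (chr1:7087903-7089606) lie 1029 bases apart on the minus strand. The authors quantified transcripts of another annotation, Araport11, and their tables hold no coordinates, so the values are linked to these positions by locus ID alone.

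To show what the C-repeat looks like in the targets, each copy of CCGAC found on the gene's strand or its complement within 500 bases before the start codon is printed 5′ to 3′ on the gene's strand, with the core in capitals and 8 bases on either side. Distances are counted in bases before the start codon.
COR15A at 443: cttgttggCCGACatacattt
COR15A at 266: tttcatggCCGACctgctttt
COR15B at 265: cttgatggCCGACctcttttt
KIN1 at 178: aatagctaCCGACataaggca
KIN2 at 185: aaaagctaCCGACataaggca
COR47 at 268: ttcatctaCCGACttcaagaa
ERD10 at 278: ttcatccaCCGACCGACCGACgtaaaaga
The core was found before all 6 COR, KIN and dehydrin members and before none of CBF1 to CBF3, against 23.4% of 27443 windows of this length before the start codons of all genes. In ERD10, 3 copies overlap in a single run, and COR15A has 2 separate copies. The KIN copies share every base from the core to the end of the printed stretch.

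The 3 activator genes instead carried the ACGTG core at similar distances, and these sites are shown because they were the motif that CBF1, CBF2 and CBF3 had in common.
CBF1 at 275: gtactataCACGTGtcattcac
CBF2 at 251: ttcttatcCACGTGgcattcac
CBF3 at 242: tatagtttACGTGgcattacc
In CBF1 and CBF2 the core reads on both strands, as the palindrome CACGTG, and CBF1 has a further copy 326 bases before the start codon. ACGTG was found before 8 of the 9 members, all but ERD10, and in 34.9% of all windows. CGCGT, the core of the site bound by the calmodulin-binding CAMTA activators, was found before CBF2, COR47 and ERD10 and in 13.4% of all windows. AAAATATCT, the evening element of clock-regulated genes, was found before CBF3, COR15A, COR15B and KIN2 and in 4.02% of all windows. A match is a description of the letters and was not tested as a binding site.

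The 250 bases before the annotated gene start are printed for CBF2, the most abundant activator in 10-day seedlings, and for COR15A, with every CCGAC and ACGTG on either strand in capitals.
CBF2, chr4:13016236-13016485, minus strand: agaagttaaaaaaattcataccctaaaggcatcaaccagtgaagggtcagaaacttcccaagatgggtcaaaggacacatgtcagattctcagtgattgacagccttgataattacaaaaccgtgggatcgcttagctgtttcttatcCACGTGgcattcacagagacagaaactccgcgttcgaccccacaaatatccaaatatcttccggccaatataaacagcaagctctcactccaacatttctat
COR15A, chr2:17712331-17712580, minus strand: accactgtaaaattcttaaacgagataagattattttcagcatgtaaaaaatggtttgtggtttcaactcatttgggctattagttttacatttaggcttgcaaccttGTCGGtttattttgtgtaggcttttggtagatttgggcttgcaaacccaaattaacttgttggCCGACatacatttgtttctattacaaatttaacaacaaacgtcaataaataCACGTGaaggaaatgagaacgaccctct
In this shorter window CCGAC was found for COR15A alone among the 9 members and in 12% of 27443 promoters, and ACGTG for 4 members and in 22.9%. The annotated gene start lies upstream of the start codon, so this window and the longer one cover different stretches.

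The deposited values are log2 CPM, read counts scaled to library size on the log2 scale, fitted by the authors, 1 value per gene and group, repeated in the 3 replicate columns (0 rows differed). No spread between pools can therefore be computed, and no difference below has a p-value. A difference (log2F.C.) is the value of one group minus that of another, and it is called higher or lower beyond 0.2. The study used this limit together with a false discovery rate, which cannot be computed from these values. The genes called here are therefore not the differentially expressed genes of the study. The lowest value of each table, 0.00582 CPM in roots and 0.00552 CPM in shoots, was taken as the default prior count that edgeR adds, which makes 1 CPM equal to 21.5 reads in a root library and 22.6 in a shoot library. Counting intervals (95%, Clopper-Pearson, on the reads of 3 libraries) are given for folds of low genes and cover counting error only. Shoot markers (RBCS, LHCB and others) summed to 48200 to 64903 CPM in shoots and 397.1 to 740.2 CPM in roots, and the root markers COBL9, EXPA7, PLT1 and WOX5 had no row in shoots.

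In roots, CBF1 stood at 0.065 (Ctrl) and 0.0722 CPM (Ti) at 3 days, and at 4.13 and 3.79 CPM at 10 days. The 3-day values stand for 3.81 and 4.28 reads in the whole group. CBF2 had 0.992, 1.15, 13.4 and 18.8 CPM in Ctrl and Ti at 3 days and Ctrl and Ti at 10 days. CBF3, in the same order, had 2.12, 2.28, 2.62 and 1.56 CPM. CBF1 and CBF2 were thus low in both 3-day groups and high in both 10-day groups, and CBF3 stayed within a narrow range.

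In shoots, the same order gave 0.245, 0.277, 1.32 and 4.16 CPM for CBF1, and 1.67, 3.09, 6.57 and 17.6 CPM for CBF2. CBF3 had 1.4, 1.27, 0.116 and 0.652 CPM. The highest level of CBF1 and CBF2 was in Ti-treated shoots at 10 days, whereas CBF3 had its lowest level in Ctrl shoots at 10 days, 7.53 reads in the group.

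The COR15 genes, with a row in shoots only, had 8.89, 6.05, 0.952 and 1.55 CPM (COR15A) and 9.59, 9.95, 0.809 and 1.03 CPM (COR15B). KIN1, with a row in roots only, had 58.4, 41.5, 6.91 and 5.59 CPM. KIN2 had 270.0, 226.8, 124.8 and 57.7 CPM in roots and 24, 17.5, 8.79 and 8.88 CPM in shoots. Every value of these cold-protein genes at 10 days was below both values at 3 days.

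COR47 was the most abundant member, with 1247, 1253, 702.9 and 861.5 CPM in roots and 110.1, 101.2, 78.6 and 87.6 CPM in shoots. ERD10 had 364.5, 351.3, 246.4 and 258.3 CPM in roots and 45.6, 40.4, 48 and 52.3 CPM in shoots. ERD10 was the member whose level varied least among the groups of each tissue. Of the 6 members with a row in both tables, 4 had a higher CPM in roots than in shoots in each treatment at 3 days, and at 10 days 6 did in Ctrl and 5 with Ti, where CBF1 was the exception. The tables were normalized separately, so these levels stand side by side without a fold.

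**Figure D1:**
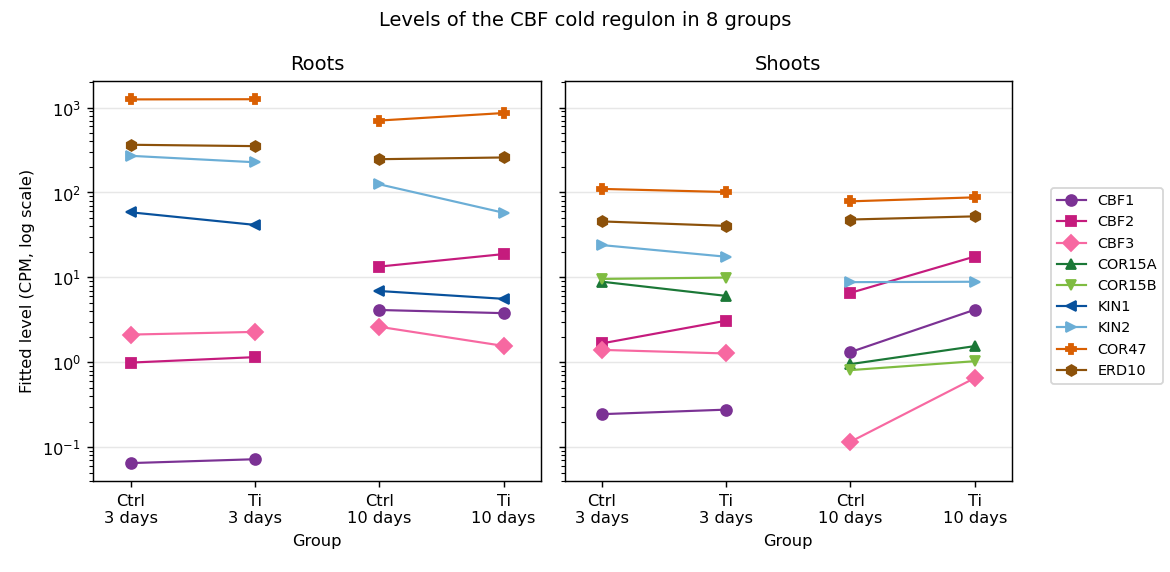
Fitted level of each member (y axis, CPM, log scale) in the 4 root groups and the 4 shoot groups (x axis); each point is 1 fitted value per group without an error, and lines join Ctrl and Ti of the same day. CBF1 and CBF2 stand higher at 10 than at 3 days in both tissues (CBF1 in Ctrl roots 0.065 and 4.13 CPM), while KIN1, KIN2, COR15A and COR15B stand lower.

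Divided by the RefSeq transcript length, the order of levels in Ctrl roots at 3 days was COR47 (537.6 CPM per kb), KIN2 (360.0), ERD10 (225.8), KIN1 (70.5), CBF3 (1.53), CBF2 (1.01) and CBF1 (0.0534). Ti-treated roots at 3 days had the same order. At 10 days CBF2 stood above KIN1 (13.6 against 8.33 CPM per kb in Ctrl roots) and CBF3 was the lowest (1.88). In Ti-treated shoots at 10 days CBF2 (17.9 CPM per kb) also stood above KIN2 (11.8). Without a spread, neighbours in these orders such as KIN2 and ERD10 in Ctrl roots at 10 days (166.4 and 152.6 CPM per kb) cannot be said to differ.

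Within the CBF cluster, the copy with the largest share of the sum was CBF3 at 3 days and CBF2 at 10 days in roots, and CBF2 at both days in shoots. CBF3 gave 66.8% of the summed CPM of the 3 genes in Ctrl roots at 3 days and 13% at 10 days, and CBF2 gave 31.2% and 66.5%. In Ctrl shoots the share of CBF3 was 42.2% at 3 days and 1.45% at 10 days, and that of CBF2 was 50.3% and 82.1%. CBF1 gave between 2.04% and 20.5% in the 8 groups. The transcripts of the 3 genes are 82.7% to 84.1% identical over 821 to 910 aligned bases, and kallisto divides reads that match several transcripts among them.

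Ti was compared with Ctrl at 10 days, the time-point at which seedlings had been longest on the medium. In shoots the 3 CBF genes had log2F.C. values of 1.66 (CBF1), 1.42 (CBF2) and 2.49 (CBF3), which are folds of 3.16, 2.68 and 5.6. CBF3 ranked 10 among the differences of all 19495 shoot genes, CBF1 ranked 60 and CBF2 ranked 100. COR15A (0.70) and COR15B (0.34) were also called higher, and COR47 (0.16), ERD10 (0.12) and KIN2 (0.01) stayed within 0.2. In all, 5 of 8 members were called higher and 0 lower, where 45.8% of all shoot genes were called, 24.2% higher and 21.7% lower. The median of the 8 members was 0.52, beside 0.01 over all genes. It was 1.66 for the 3 CBF genes and 0.16 for the 5 other members.

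Low genes scatter more, so each difference was set beside genes of like level, those within 0.5 log2 CPM of the member's mean. For CBF1 in shoots, 90% of 1496 such genes lay between -0.65 and 0.67, and its counting interval was 2.49 to 4.07-fold. For CBF2 the range was -0.43 to 0.45 over 3186 genes, and the counting interval 2.41 to 3.00-fold. For CBF3 it was -1.42 to 1.41 over 421 genes, and the counting interval was 2.56 to 13.5-fold, from 7.53 and 43.9 reads. All 3 CBF genes thus stood above this range. COR15A (0.70; range -0.77 to 0.81) and COR15B (0.34; range -0.85 to 0.90) lay inside it, and the counting interval of COR15B, 0.868 to 1.82-fold, includes 1. With 1 CPM added to every value, COR15B (0.16) was no longer called, COR15A had 0.39, CBF1 1.16 and CBF3 0.57. COR15B overlaps the gene AT2G42520 on the opposite strand by 468 bases, and without a stated strand setting reads of the overlap cannot be told apart.

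**Figure D2:**
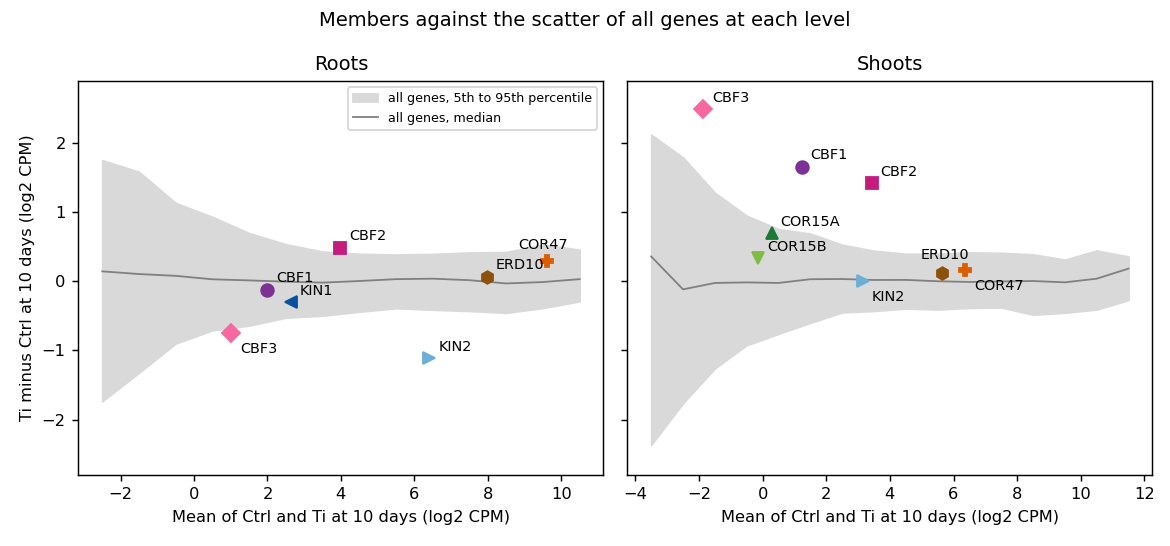
Ti minus Ctrl at 10 days (y axis, log2 CPM) against the mean of both groups (x axis, log2 CPM) for each member, in roots and shoots; the grey band holds the 5th to 95th percentile of all genes in bins of level, and the line their median. In shoots CBF3 (2.49), CBF1 (1.66) and CBF2 (1.42) lie above the band, and in roots KIN2 (-1.11) lies below it.

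In roots at 10 days the members did not share a direction. CBF2 (0.49) and COR47 (0.29) were called higher, KIN2 (-1.11), CBF3 (-0.75) and KIN1 (-0.30) lower, and CBF1 (-0.12) and ERD10 (0.07) stayed within 0.2. That is 2 of 7 higher and 3 lower, where 46.0% of all root genes were called, 23.7% higher and 22.3% lower, and the median of the members was -0.12 beside 0.02 over all genes. KIN2, with 124.8 (Ctrl) and 57.7 CPM (Ti), had a fold of 0.462 and ranked 145 from the lowest of 20336 genes. Of 2358 genes of like level, 90% lay between -0.41 and 0.40. CBF2 stood just above its own range of -0.47 to 0.41, and CBF3 (range -0.63 to 0.87) just below it, with a counting interval of 0.46 to 0.767-fold. Of 8 shoot markers, 4 were called higher and 0 lower in Ti-treated roots at 10 days, with a summed level of 596.6 CPM in Ctrl and 740.2 CPM with Ti, and their part in these differences was not tested.

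KIN1 and KIN2 transcripts are 91.7% identical over 505 aligned bases, the closest pair of copies among the members. Their sum in roots at 10 days was 131.7 (Ctrl) and 63.3 CPM (Ti), a log2F.C. of -1.06. KIN2 made up 94.8% and 91.2% of that sum, which is therefore largely the KIN2 value. The CBF sum at 10 days was 20.2 and 24.2 CPM in roots (0.26), and 8.01 and 22.4 CPM in shoots (1.49). In roots the lower CBF3 and the higher CBF2 thus partly cancel in the sum, of which CBF2 was the largest share.

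**Figure D3:**
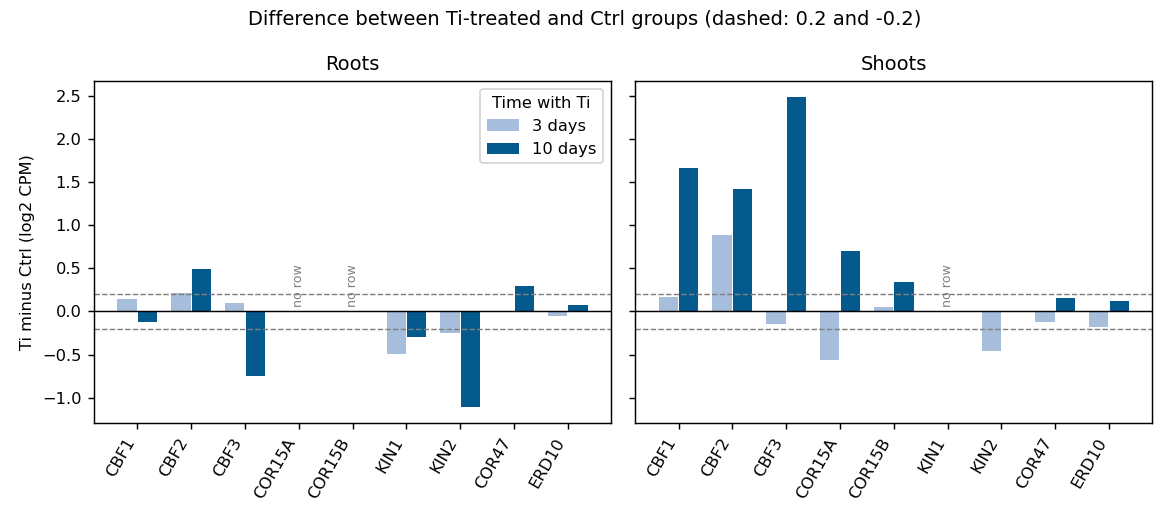
Difference between Ti-treated and Ctrl groups (y axis, log2 CPM) for each member at 3 days (light bars) and 10 days (dark bars) in roots and shoots; dashed lines mark 0.2 and -0.2, and "no row" marks a gene not in that table. The 10-day bars of the 3 CBF genes reach 1.42 to 2.49 in shoots and -0.75 to 0.49 in roots.

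At 3 days the differences of the members in roots were within 0.5 of 0. CBF2 (0.21) was called higher, KIN1 (-0.49) and KIN2 (-0.25) lower, and CBF1 (0.15), CBF3 (0.10), COR47 (0.01) and ERD10 (-0.05) stayed within 0.2. This is 3 of 7 called, where 16.9% of all root genes were called, 8.51% higher and 8.38% lower. The value of CBF2 lay just beyond the limit and inside its range of like level (-0.63 to 0.69), whereas KIN1 (range -0.13 to 0.13 over 3369 genes) and KIN2 (-0.12 to 0.10 over 607 genes) lay below theirs. KIN1 ranked 372 from the lowest of 20336 genes. At 3 days 8 of 8 shoot markers were called higher in Ti-treated roots, with a summed level of 397.1 CPM in Ctrl and 536.0 CPM with Ti, and their part in these differences was not tested.

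In shoots at 3 days, CBF2 was 1.67 CPM in Ctrl and 3.09 CPM with Ti (0.89), with a counting interval of 1.47 to 2.36-fold, above its range of like level (-0.60 to 0.47). COR15A (-0.56) and KIN2 (-0.46) were called lower and stood below their ranges (-0.29 to 0.31 and -0.18 to 0.23). CBF1 (0.17), COR15B (0.05), COR47 (-0.12), CBF3 (-0.14) and ERD10 (-0.18) stayed within 0.2. In all, 1 of 8 was called higher and 2 lower, where 25.1% of all shoot genes were called, 13.1% higher and 12.0% lower. CBF2 was the only member called higher with Ti in both tissues and at both days, with its root value at 3 days at the limit.

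The Ti effect at 10 days minus that at 3 days was above 0.2 for 8 of 8 members in shoots, from 0.28 (COR47) to 2.63 (CBF3), where 53.6% of all shoot genes passed 0.2 in either direction and 28.0% upward and 25.6% downward. CBF1 had 1.49, COR15A 1.26, CBF2 0.53 and KIN2 0.47. In roots 2 of 7 were above 0.2 and 3 below -0.2, with KIN2 (-0.86) and CBF3 (-0.85) lowest, where 48.7% of all genes passed, 25.4% upward and 23.4% downward. These differences of differences were not tested.

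The days were then compared within each treatment, to give the levels against which Ti is read. Because the hour of harvest is not given, age and time of day cannot be told apart in these differences. The Ctrl comparison of days and the Ti comparison at 10 days share the same Ctrl groups, and their values are therefore given side by side only. In Ctrl roots CBF1 was higher at 10 days by 5.99 on the log2 scale, a 63.6-fold difference with a counting interval of 25.7 to 245.9-fold, and it ranked 18 of 20336 genes. The size depends on what is added to low values, with 4.68 when 0.1 CPM and 2.27 when 1 CPM was added, and it was 2.67 for the 3 CBF copies summed. CBF2 was higher by 3.76 (rank 56) and CBF3 by 0.30. The 4 cold-protein genes with a row were all lower, with -3.08 for KIN1 (rank 25 from the lowest), -1.11 for KIN2, -0.83 for COR47 and -0.57 for ERD10. Thus 3 of 7 members were called higher and 4 lower, where 61.1% of all root genes were called, 30.4% higher and 30.6% lower.

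In Ctrl shoots CBF1 (2.42) and CBF2 (1.98) were higher at 10 days and CBF3 (-3.59) was lower. COR15B (-3.57), COR15A (-3.22), KIN2 (-1.45) and COR47 (-0.49) were lower too, and ERD10 (0.07) stayed within 0.2. CBF3, COR15B and COR15A ranked 50, 51 and 67 from the lowest of 19495 genes. In all 2 of 8 members were called higher and 5 lower, where 67.7% of all shoot genes were called, 33.0% higher and 34.6% lower. The activator genes CBF1 and CBF2 and the members with a C-repeat therefore stood on opposite sides of 0 in Ctrl seedlings of both tissues, except ERD10 in shoots.

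With Ti the same comparison of days gave 5.71 for CBF1, 4.04 for CBF2 and -0.55 for CBF3 in roots, and KIN1 (-2.89), KIN2 (-1.97), COR47 (-0.54) and ERD10 (-0.44) were lower. In Ti-treated shoots CBF1 had 3.91, CBF2 2.51 and CBF3 -0.96, and COR15B (-3.27), COR15A (-1.97), KIN2 (-0.98) and COR47 (-0.21) were lower, while ERD10 (0.37) was higher. The counts were 2 higher and 5 lower of 7 in roots, where 69.0% of all genes were called (33.9% higher, 35.1% lower), and 3 higher and 5 lower of 8 in shoots, where 70.0% were called (35.0% higher, 34.9% lower). The summed level of the COR15 genes in shoots was 18.5 CPM at 3 days and 1.76 CPM at 10 days in Ctrl, and 16 and 2.58 CPM with Ti.

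**Figure D4:**
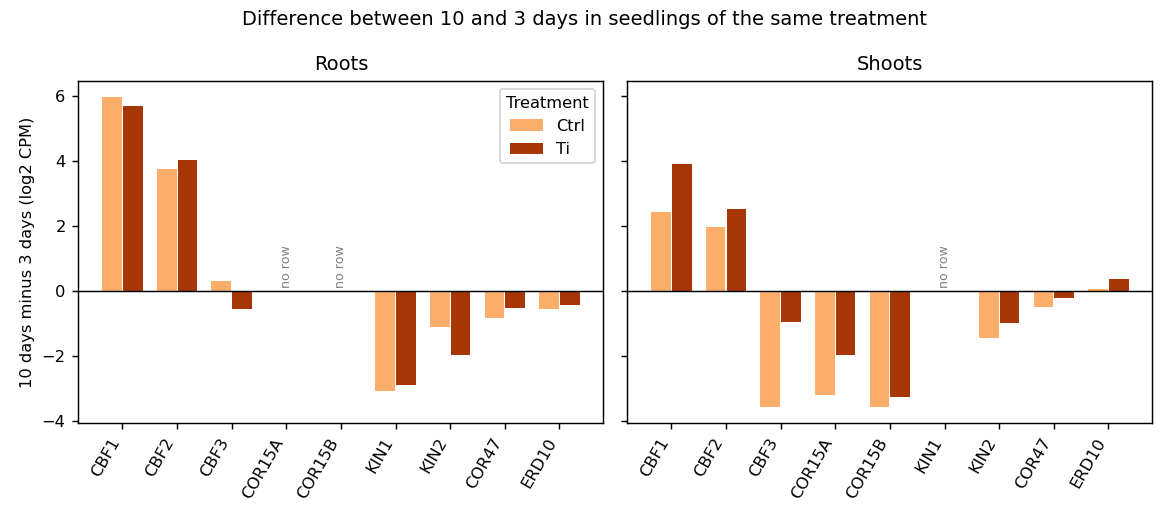
Difference between 10 and 3 days (y axis, log2 CPM) for each member in Ctrl (light bars) and Ti-treated (dark bars) roots and shoots; "no row" marks a gene not in that table. CBF1 and CBF2 are above 0 in every panel and treatment, from 1.98 to 5.99, and the KIN, COR15 and COR47 bars are below 0.

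Other genes of the cold pathway were read from lists by function. Of the remaining DREB1 genes, CBF4 and DDF2 had no row in either table. DDF1 (AT1G12610), a stress-induced DREB1 factor, was at the lowest value of the root table in both 3-day groups and reached 2.12 (Ctrl) and 4.62 CPM (Ti) at 10 days (1.13). In shoots it had 0.403, 0.609, 3 and 8.04 CPM, with a log2F.C. of 1.42 at 10 days. DDF1 was thus higher at 10 than at 3 days in both tissues, as CBF1 and CBF2 were.

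Of 19 regulators of the CBF genes, 7 were called higher and 2 lower with Ti in roots at 10 days, and 4 higher and 4 lower in shoots. These shares are near the 46.0% of all root genes and 45.8% of all shoot genes called, so the counts show nothing particular to the regulators. The morning clock factor LHY, which with CCA1 activates the CBF genes, was lower with Ti at 10 days in roots (-0.92; 22.4 and 11.9 CPM) and in shoots (-1.02; 72.4 and 35.6 CPM). PRR5, a clock repressor of the CBF genes, was higher with Ti in roots (1.07) and shoots (0.94). In shoots it stood at 57 and 87.3 CPM at 3 days and at 0.393 and 0.755 CPM at 10 days. PIF7, a light-signalling repressor of the CBF genes, was lower with Ti in shoots at 10 days (-0.69; 28.1 and 17.5 CPM). ICE1, the bHLH activator of the pathway, stayed within 0.2 in both tissues (0.10 and 0.04). The part of the clock genes in the differences of the CBF genes was not tested.

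MYB15, a repressor of the CBF genes, stood at 0.272 (Ctrl) and 0.0552 CPM (Ti) in roots at 3 days, and at 37.9 and 40.7 CPM at 10 days. In Ctrl and Ti-treated shoots it had 0.0205 and 0.0745 CPM at 3 days, and 5.82 and 6.51 CPM at 10 days. The zinc-finger repressor ZAT12 was also higher at 10 days, by 1.90 in Ctrl roots and 2.36 in Ctrl shoots. Both repressors thus moved between the days in the same direction as CBF1 and CBF2.

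Of 12 other CBF targets, 2 were called higher and 3 lower with Ti in 10-day roots (median 0.10), and 6 higher and 2 lower in 10-day shoots (median 0.19), beside 46.0% and 45.8% of all genes called in either direction. COR413IM1, a cold-regulated protein of the chloroplast inner envelope, had 16.7, 12.5, 4.23 and 20.2 CPM in shoots and a log2F.C. of 2.26 at 10 days. Its neighbour COR413IM2 had 0.68, and the dehydration-induced ERD7 had 1.16. RD29A, also called COR78, a standard reporter of the pathway, stayed within 0.2 at 10 days in roots (0.09) and shoots (0.05). Between days it was lower in Ctrl roots (-2.01) and Ctrl shoots (-2.48). Between days 4 of the 12 were called higher and 6 lower in Ctrl roots, where ZAT10 (4.85) and BAM3 (2.54) were higher. In Ctrl shoots 3 were higher and 8 lower. Of all genes, 61.1% were called between days in Ctrl roots and 67.7% in Ctrl shoots.

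The counts of the further lists at 10 days stand beside the same 46.0% of all root genes and 45.8% of all shoot genes called. Of 5 other dehydrins, 1 was called higher and 0 lower in roots at 10 days, RAB18 (0.68 CPM in Ctrl and 0.989 CPM with Ti). In shoots 1 of 4 was called higher, the dehydrin HIRD11 (0.27, with 426.3 and 514.0 CPM). The lists overlap, since RAB18 is also counted under abscisic acid output and the dehydrin LTI30 also under other CBF targets. Of 11 genes listed as abscisic acid output, 6 were called higher and 0 lower in roots. RD29B (0.57, with 1.25 and 1.85 CPM) and the phosphatase gene ABI2 (0.36) were among those higher. In shoots 3 of 10 were higher and 2 lower. The list also holds a synthesis gene, NCED3, the enzyme that commits carotenoids to abscisic acid synthesis. NCED3 had 0.96 in shoots (5.85 and 11.4 CPM). Of 8 cold-responsive genes outside the CBF route, 5 were higher and 1 lower in shoots and 3 higher and 2 lower in roots. Those higher in shoots include COR27 and COR28, which rest on few reads in the group. COR27 had 8.4 reads in Ctrl and 12.5 with Ti, and COR28 had 1.89 and 3.72. GOLS2, a galactinol synthase, had 1.16 in roots and 0.84 in shoots, and the clock-controlled RNA-binding protein gene GRP7 had 0.52 in shoots. DREB2A, the activator of the dehydration and heat branch, was higher with Ti in roots (0.80; 76.1 and 132.9 CPM) and lower in shoots (-0.62; 8.31 and 5.41 CPM). In shoots its direction was opposite to that of the 3 CBF genes. In roots it was opposite to that of CBF3 (-0.75) and the same as that of CBF2 (0.49).

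**Figure D5:**
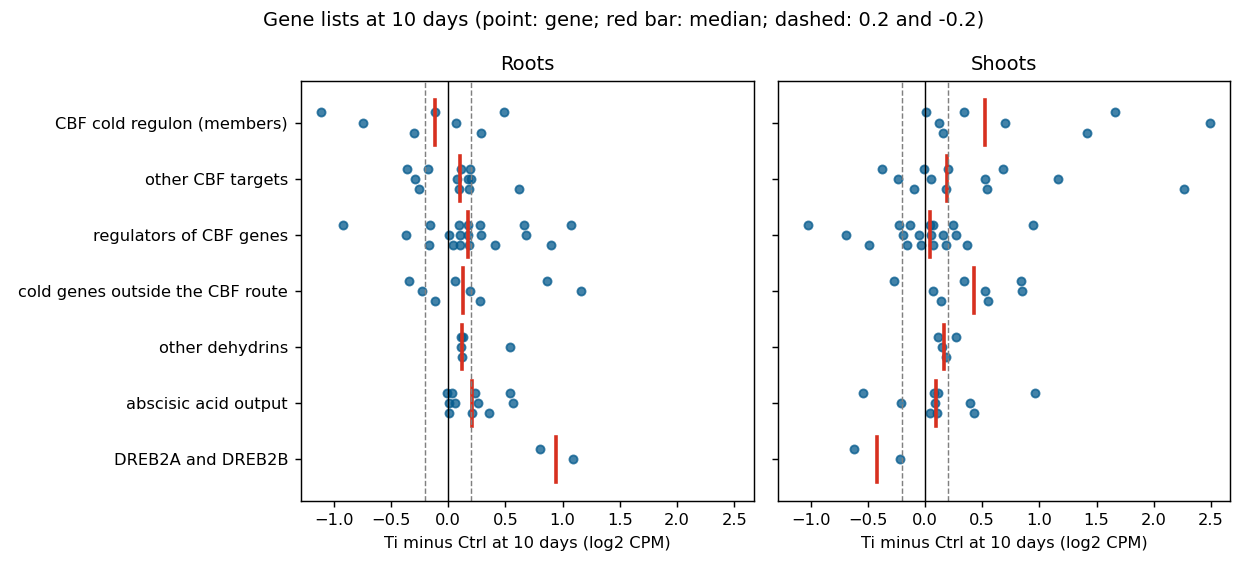
Ti minus Ctrl at 10 days (x axis, log2 CPM) for each gene of 7 lists (y axis) in roots and shoots; each point is a gene, the red bar the median of the list and the dashed lines 0.2 and -0.2. In shoots the median of the members (0.52) is right of those of the other CBF targets (0.19) and of the regulators (0.04). It is near that of the cold genes outside the CBF route (0.43), of which COR27 and COR28 rest on few reads. The members other than the 3 CBF genes have a shoot median of 0.16. In roots the median of the members is -0.12.

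Each gene was described by its 8 group values, each less the mean of the 4 groups of its tissue. The mean of 5 members was then taken (CBF1, CBF2, KIN2, COR47 and ERD10, which averaged 1 CPM or more in both tissues). Nearest to it, of 16821 genes, were scpl31 (AT1G11080, a distance of 0.18), AT1G21000 (0.30), the heat shock factor HSF A4A (AT4G18880, 0.32), AT1G72950 (0.33) and AT1G50740 (0.33). The distance is Euclidean on the log2 scale. The members themselves lay farther from that mean, from 2.05 (ERD10) to 5.08 (CBF1), so the mean stands for no single member.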

How the data were processed

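Root and shoot RNA of seedling pools was sequenced as 24 libraries in 8 groups. FastQC 0.11.9 and Trim Galore 0.6.6 served the authors for quality control and trimming, kallisto 0.44.0 with Araport11 for quantification, tximport for gene sums and edgeR, after removal of low genes, for a fit within each tissue. What they deposited is log2 CPM with 1 fitted value per gene and group, so the planned limma fits, leaving out a replicate and the replicate block could not be run. Differences were computed only within a tissue, because the tables were normalized separately, and levels in the 2 tissues were set side by side.

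Differences of log2 CPM were computed for all genes and called beyond 0.2 without a test. The members and lists were chosen with earlier results of these data known. All members are named. From each list, up to 3 genes per comparison are named, with the largest difference beyond 0.2 and a mean of at least 1 CPM. ICE1, RD29A, MYB15 in shoots and at 3 days, and further values of named genes were added after their values were seen. The same holds for RAB18 in roots and for COR27 and COR28 in shoots at 10 days. Depth was inferred from the lowest value of each table, with groups under 3 reads (0.0524 CPM in roots, 0.0497 CPM in shoots) given without a fold. Names, positions, transcript lengths and sequences came from RefSeq on TAIR10.1, in which all 9 members were matched by locus, and transcript identity from blastn 2.17.0. Motifs were searched on both strands. The scripts (Python 3.11.15, numpy 2.4.6, pandas 2.3.3, scipy 1.17.1, matplotlib 3.10.9) were tested on simulated data. Alternatives were 0.1 and 1 CPM added, a minimum mean of 1 CPM, a common median, a common sum, quantile normalization, a limit of 0.5, and sums over the CBF, COR15 and KIN copies.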

Additional observations from a re-analysis of the deposited data

Results flagged for a closer look

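CBF3 was lower with Ti at 10 days in roots (-0.75; 2.62 CPM in Ctrl and 1.56 CPM with Ti) and higher in shoots (2.49; 0.116 and 0.652 CPM), and was listed because the 2 tissues moved in opposite directions beyond 0.2. The shoot value rests on 7.53 reads in Ctrl and 43.9 with Ti, and the root value on 168.4 and 100.1 reads. The annotated CBF3 gene overlaps the lncRNA gene AT4G07385 on the opposite strand by 29 bases, and that gene had no row in either table.

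COR15A in shoots was lower with Ti at 3 days (-0.56; 8.89 and 6.05 CPM) and higher at 10 days (0.70; 0.952 and 1.55 CPM), opposite directions at the 2 days. Both differences between effects were not tested, because the tables hold 1 value per group.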

How the results depend on the processing

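Of 140 counts of members under the alternatives, 4 of them of members with a higher CPM in roots than in shoots and the rest of called members, 128 stayed within 1.5 times the value reported. With Ti in roots at 3 days, where 1 member was higher, 0 were higher with 0.1 or 1 CPM added, quantile normalization, the limit of 0.5 or the copies summed, and 0 instead of 2 were lower at the limit of 0.5. In roots at 10 days the count higher was 1 with quantile normalization, 0 at the limit of 0.5 and 4 with the copies summed (2 as reported). In shoots at 3 days it was 2 with quantile normalization and 3 with the copies summed (1 as reported), and at the limit of 0.5 the count lower was 1 instead of 2. Of 446 values of single members, 382 moved little, 60 moved and 4 reversed. All 4 are CBF3 with the CBF copies summed, a sum that at 10 days consists mostly of CBF2: 0.26 (Ti in roots at 10 days), 2.79 (days in Ti-treated roots), 1.27 (days in Ctrl shoots) and 2.28 (days in Ti-treated shoots). With 1 CPM added, CBF3 in shoots at 10 days had 0.57 in place of 2.49 and with 0.1 CPM 1.80, since its level is low; CBF1 between days in Ctrl roots had 2.27 and 4.68 in place of 5.99. KIN2 with Ti in shoots at 10 days had -0.03 with a common sum, in place of 0.01. A common sum gave 3772 shoot genes higher and 5253 lower with Ti at 10 days (41.8% higher, against 52.7% as reported) and 8240 higher and 5413 lower between days in Ctrl shoots (60.4% against 48.8%), with the median of all genes shifted by 0.11. No paired analysis was possible because the 3 replicate columns of a group are identical, and leaving out a replicate was not run for the same reason. Depth limits CBF1 in roots at 3 days (under 5 reads in the group) and CBF3 in Ctrl shoots at 10 days.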
